A study of Mus musculus with 32 samples.

Results

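The 10 genes described here encode the interleukin-6 (IL-6) family cytokines *Il6*, *Lif* and *Osm*, their receptor chains *Il6ra*, *Il6st* and *Osmr*, the transcription factor *Stat3*, its feedback inhibitor *Socs3*, and the acute phase genes *Saa3* and *Lrg1*. They were taken as a list of gene symbols, and all 10 were found among the 29511 genes of the deposited tables. RNA was sequenced from 32 samples of FVB/N mice to compare hosts with and without *Clic4* in an orthotopic breast cancer model before lung metastasis. Tumors of 6 KO and 6 WT hosts were sequenced, with 12 lungs taken at the same age of tumor (6 of each genotype) and 8 control lungs (4 of each). KO hosts carried a constitutive *Clic4* knockout that excised the region around exon 2 in every tissue. WT hosts came from the same heterozygous intercrosses, and all hosts were virgin females 6 to 8 weeks old at the start. The tumors grew from 6DT1 cells, a mammary tumor line of FVB/N origin, and both tissues were taken 14 days after these cells were injected into a mammary fat pad. Control lungs were taken at baseline from mice without tumors. The 6DT1 cells carry *Clic4* in both hosts, so that RNA of a tumor in a KO host mixes *Clic4*-deficient stroma with *Clic4*-bearing tumor cells.

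IL-6 family cytokines signal through receptor complexes that share the chain gp130, the product of *Il6st*. The complexes activate JAK kinases, which phosphorylate STAT3, and STAT3 induces *Socs3*, whose product inhibits the receptor complex in turn. Acute phase proteins are made by hepatocytes and, for *Saa3* and *Lrg1*, also by inflamed tissues.

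The promoters of the 2 members that differed between tumors of KO and WT hosts, *Saa3* and *Socs3*, are shown with that of *Il6*, the cytokine that names the family. The bases 250 upstream of each RefSeq start (GRCm38.p6, the build of the deposited counts) were searched on both strands for TTCNNNGAA (STAT), TTNNGCAA (C/EBP) and GGGNNTTTC (NF-kB), and the parts outside annotated exons are printed with matches in capitals. Of the 10 members, 9 had a promoter in the RefSeq table, and *Osm* was not matched. The *Il6* promoter is chr5:30012864-30013113 on the plus strand, with a C/EBP match that starts at -128 and an NF-kB match at -44 relative to the start. The *Saa3* promoter is chr7:46715701-46715926 on the minus strand, with a C/EBP match at -99. The *Socs3* promoter is chr11:117969452-117969616 on the minus strand, with a STAT match at -154 from the RefSeq start. This stretch lies within the annotated *Socs3* gene, chr11:117966079-117970047, whose outermost start is farther upstream. Of the 250 bases searched for *Socs3*, 77 are annotated exon, and the printed stretch stops before the first of them.
Il6: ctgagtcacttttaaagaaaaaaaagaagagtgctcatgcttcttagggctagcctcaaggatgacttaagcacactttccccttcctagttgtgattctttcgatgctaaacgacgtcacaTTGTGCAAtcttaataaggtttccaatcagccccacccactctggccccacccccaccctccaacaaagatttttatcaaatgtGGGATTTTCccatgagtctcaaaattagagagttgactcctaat
Saa3: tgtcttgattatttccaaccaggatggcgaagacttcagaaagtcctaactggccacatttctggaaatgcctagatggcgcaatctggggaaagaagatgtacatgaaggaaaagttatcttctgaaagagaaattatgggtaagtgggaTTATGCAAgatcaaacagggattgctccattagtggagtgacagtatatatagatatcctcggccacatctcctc
Socs3: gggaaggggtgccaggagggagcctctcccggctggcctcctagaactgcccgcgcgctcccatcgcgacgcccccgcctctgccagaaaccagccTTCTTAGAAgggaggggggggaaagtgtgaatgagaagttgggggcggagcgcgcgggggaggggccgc
The other 6 matched members, *Lif*, *Il6ra*, *Il6st*, *Osmr*, *Stat3* and *Lrg1*, held none of the 3 motifs in this window. For *Il6ra* and *Osmr* all 250 bases of the window are annotated exon, and for *Lrg1* 55 are. Among 32851 RefSeq promoters of the same length, 7.02% held the STAT letters, 9.56% the C/EBP letters and 3.72% the NF-kB letters.

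Each sample held 4446323 to 8318711 counts assigned to genes, with a median of 5384934. Levels are given as CPM, that is counts scaled to a common library total by the TMM method, and as the authors' FPKM where genes are compared with each other. *Clic4*, the targeted gene, was measured at 221 to 280 CPM in the 6 KO and 590 to 857 CPM in the 6 WT lungs of tumor-bearing mice, and at 206 to 254 CPM in the 4 KO and 611 to 691 CPM in the 4 WT control lungs. These counts include reads outside the excised region. In tumors *Clic4* was 245 to 281 CPM in KO hosts and 293 to 321 CPM in WT hosts. Markers fitted the labelled tissues: *Sftpc*, a surfactant gene of alveolar type 2 cells, was 4120 to 5490 CPM in lungs of tumor-bearing mice and 0.0700 ± 0.146 CPM (SD, n = 12) in tumors, where the epithelial keratin gene *Krt8* was 332 ± 43.9 CPM. *Epcam* was low in the tumors, at 10.6 ± 7.56 CPM. One WT tumor, replicate 2, held 37.1 CPM of summed B cell markers against 0.713 to 4.38 CPM in the other 11 tumors.

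Per transcript length, the receptor chain gene *Il6st* and *Stat3* were the highest members in lungs, and these and *Saa3* in tumors. In lungs *Il6st* averaged 89.0 ± 7.72 FPKM and *Stat3* 68.1 ± 9.39 FPKM (SD, n = 20). In tumors *Saa3* averaged 94.4 ± 73.5 FPKM, *Stat3* 67.3 ± 12.6 FPKM and *Il6st* 56.2 ± 5.22 FPKM (n = 12). *Saa3* led in KO hosts, at 155 ± 48.4 FPKM, but in WT hosts it was below *Stat3* (61.5 ± 13.4 FPKM) and *Il6st* (54.0 ± 6.33 FPKM), at 33.4 ± 25.0 FPKM (n = 6 each). The cytokine genes were the lowest, with *Il6* at 0.884 ± 0.881 FPKM in tumors and 0.276 ± 0.342 FPKM in lungs, where 8 of 20 samples had a count of 0.

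**Figure D1:**
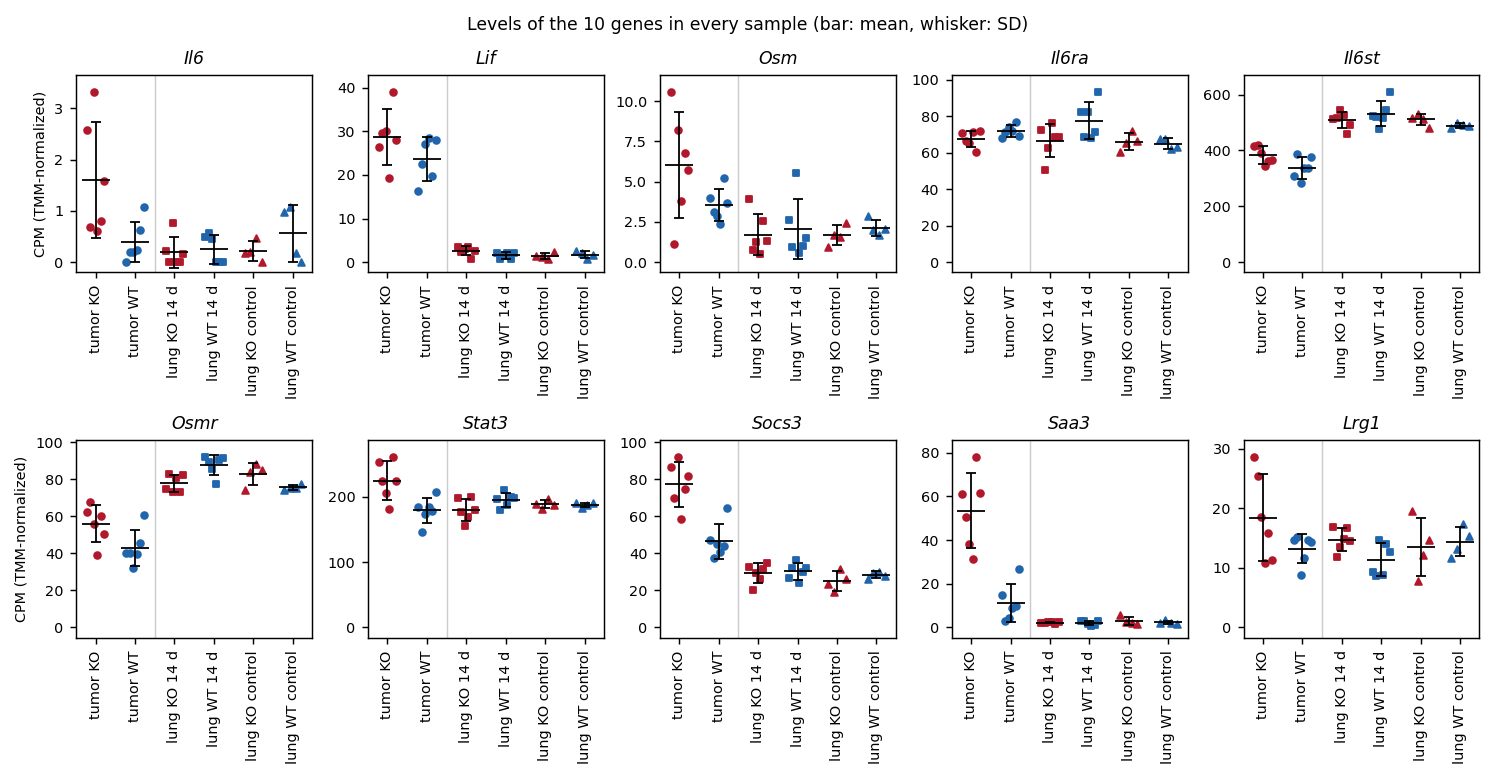
Levels of the 10 genes in CPM (linear axis, one panel per gene) in each of the 32 samples, with KO hosts in red and WT hosts in blue; horizontal bars are group means and whiskers the SD. *Saa3* lay at 31.2 to 78.1 CPM in tumors of KO hosts and at 2.93 to 26.6 CPM in those of WT hosts, while *Lif* was higher in every tumor than in any lung.

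In tumors, *Saa3* and *Socs3* were higher in KO than in WT hosts, and the other 7 members tested did not pass. The question of this comparison was how host *Clic4* alters the primary tumor. Of the 9 members with enough counts for the edgeR test, 2 passed an FDR of 0.05, against 2.51% of all 13830 genes tested and 2.02% that were higher in KO hosts. The median log2 fold change of KO over WT hosts was 0.37 over the 9 members, 8 of them positive, and -0.01 over all genes. Because the members were chosen with earlier results of these data known, these shares are descriptive only.

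*Il6*, the ligand of the *Il6ra* chain, had too few counts for the fit. Tumors of KO hosts held 3 to 15 counts (median 7.5) and those of WT hosts 0 to 5 counts (median 1), which is 1.60 ± 1.13 and 0.390 ± 0.394 CPM (SD, n = 6 each). The groups overlapped, because KO tumors 2, 4 and 5 lay below the highest WT tumor. The difference in means was 1.21 CPM (two-sided exact permutation test, p = 0.0195, smallest possible 0.00216), and its Benjamini-Hochberg adjusted p over the 6 comparisons of *Il6* was 0.0584.

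*Lif*, which signals through the receptor LIFR with gp130, was 19.2 to 39.1 CPM (median 28.8) in KO and 16.2 to 28.5 CPM (median 24.8) in WT tumors, a log2 fold change of 0.29 ± 0.17 (SE; edgeR, FDR 0.433). *Osm*, which signals through OSMR with gp130 and is mainly made by leukocytes, was 1.15 to 10.6 CPM (median 6.24) in KO and 2.38 to 5.26 CPM (median 3.40) in WT tumors. KO tumor 2 was the lowest of all 12 for *Osm* and the ranges overlapped, with a log2 fold change of 0.73 ± 0.36 (edgeR, FDR 0.348).

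None of the receptor chains passed. *Osmr*, the oncostatin M receptor chain, was 39.2 to 67.8 CPM (median 58.0) in KO and 31.9 to 60.7 CPM (median 40.2) in WT tumors. Of the KO tumors 5 lay above 5 of the WT tumors, with KO tumor 4 low and WT tumor 6 high, and the log2 fold change was 0.37 ± 0.15 (edgeR, FDR 0.245). *Il6st* had a log2 fold change of 0.17 ± 0.08 (FDR 0.342) and *Il6ra*, the chain that binds IL-6, of -0.10 ± 0.06 (FDR 0.468), both with overlapping groups. An antisense gene overlaps *Il6ra*, and whether strand was used in counting is not given in the sources used here.

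*Stat3*, the factor that these receptors activate, was 181 to 261 CPM (median 224) in KO and 146 to 207 CPM (median 181) in WT tumors. Only KO tumors 3 and 4 lay below the highest WT tumor, and the log2 fold change of 0.32 ± 0.09 missed the limit (edgeR, FDR 0.0949). It passed with DESeq2 (FDR 0.0372), without KO tumor 4 (FDR 0.0323) and without WT tumor 6 (FDR 0.0485). The end of *Stat3* overlaps *Stat5a* on the opposite strand, so that their reads may not be fully separated.

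*Socs3*, the feedback inhibitor induced by STAT3, was 58.6 to 92.2 CPM (median 78.3) in KO and 37.7 to 64.6 CPM (median 44.7) in WT tumors. KO tumors lay above 5 of the 6 WT tumors, and only WT tumor 6 overlapped, above the lowest KO tumor. *Socs3* was higher in KO hosts by 1.65-fold, a log2 fold change of 0.73 ± 0.13 (edgeR, FDR 0.00529).

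*Saa3*, an acute phase gene that macrophages, adipocytes and epithelia make outside the liver, was 31.2 to 78.1 CPM (median 55.7) in KO and 2.93 to 26.6 CPM (median 9.28) in WT tumors. Every KO tumor was above every WT tumor, which held for 1.53% of all genes tested, and for no other of the 9 members. The rise of 4.78-fold, a log2 fold change of 2.26 ± 0.38 (edgeR, FDR 0.00318), was past the 2-fold limit used for tumors, which *Socs3* was not. Of the 50-base stretches of *Saa3* transcripts, 3.57% also occur in other genes, against at most 0.31% for any other member. *Lrg1*, a secreted glycoprotein of neutrophils, endothelium and liver, was 10.8 to 28.6 CPM (median 17.3) in KO and 8.86 to 15.2 CPM (median 14.4) in WT tumors, with a log2 fold change of 0.46 ± 0.23 (FDR 0.379).

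**Figure D2:**
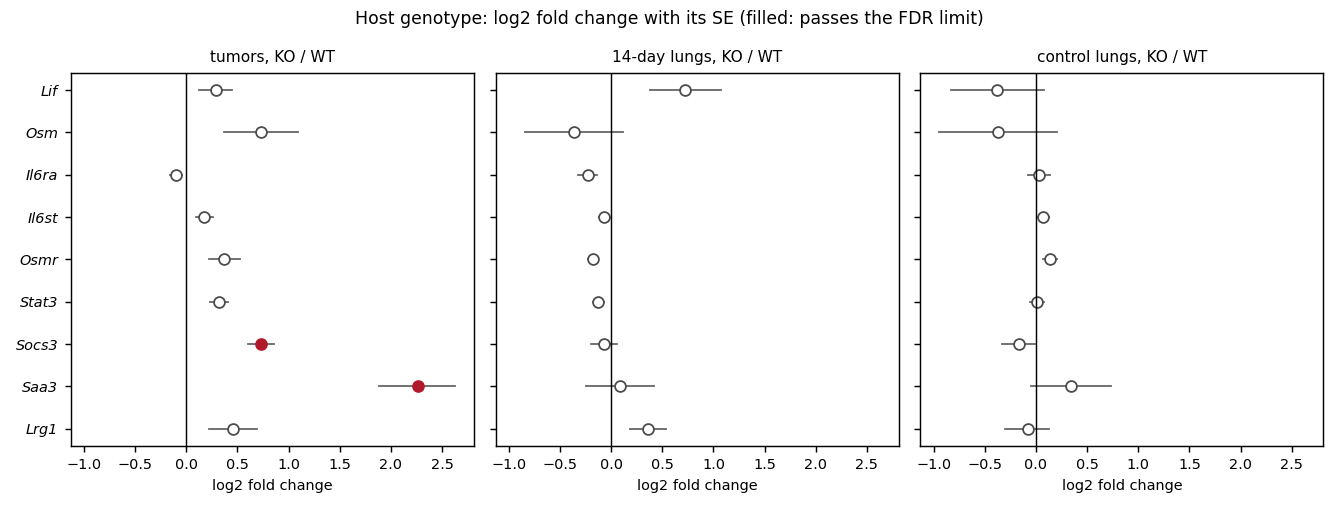
Log2 fold change of KO over WT hosts (points) with its SE (lines) for the 9 members tested, in tumors (n = 6 each), in lungs of tumor-bearing mice (n = 6 each) and in control lungs (n = 4 each), on one scale; filled points pass an FDR of 0.05 in tumors or 0.25 in lungs. *Saa3* at 2.26 and *Socs3* at 0.73 in tumors are the only filled points.

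Beyond the members, 4 of 39 tested genes of the listed pathway groups were higher in tumors of KO hosts and none was lower, with 36 of the 39 fold changes positive and a median of 0.35. Over all genes tested 2.02% were higher at this limit and 47.7% of the fold changes were positive. The lists were chosen with earlier results of these data known, so these counts describe the lists and are no independent test of them. These lists held 65 genes, of which 26 were not tested here. Among 11 genes of JAK-STAT signaling and its regulators 2 rose. The inhibitor gene *Socs1* rose from 2.38 ± 0.537 CPM in WT to 6.78 ± 1.96 CPM in KO tumors (SD, n = 6 each), by 1.5 ± 0.23 on the log2 scale (edgeR, FDR 0.00188). The kinase gene *Jak2* rose from 87.1 ± 8.54 to 123 ± 10.8 CPM, by 0.50 ± 0.08 (FDR 0.00163), and for both genes every KO tumor was above every WT tumor. *Socs1* is best known as a gene of the interferon response, not of the IL-6 response alone.

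Among 12 known STAT3 target genes 2 rose, namely the kinase gene *Pim1* by 0.87 ± 0.16 (FDR 0.00796) and the metalloproteinase inhibitor gene *Timp1* by 0.41 ± 0.10 (FDR 0.0465). *Timp1* missed the limit in 8 of 12 fits without 1 tumor, at FDR up to 0.130, with GC offsets (FDR 0.0649) and with limma (FDR 0.0932 and 0.0969). None of the 10 tested acute phase genes outside the members passed with edgeR (3 had an unadjusted p under 0.05, and 1 passed with DESeq2), and 12 listed ones were not tested here. The 3 were *Mt2* at 0.57 ± 0.18 (FDR 0.116), *Serpina3n* at 0.69 ± 0.23 (FDR 0.144) and *Hp*, the haptoglobin gene, at 0.60 ± 0.22 (FDR 0.187), named after their values were seen, and all 10 fold changes were positive. Over all 13830 genes tested, 2146 had an unadjusted p under 0.05 and 549 passed with DESeq2.

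No other ligand (1 tested of 9), receptor (3 of 5) or inducer (2 of 6) passed with edgeR. At an unadjusted p under 0.05 these were 0 ligands, 1 receptor and 1 inducer, and DESeq2 passed 0 of them. *Tnf*, an inducer of IL-6 and acute phase genes, had a log2 fold change of 1.03 (FDR 0.129). In bulk RNA of this kind, fewer cells of a type and less RNA per cell cannot be told apart.

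Of the immune cell markers, 1 for T cells and 1 for macrophages passed in the same tumors, against 2.51% of all genes, of which 2146 of 13830 had an unadjusted p under 0.05. T cell markers summed to 16.8 to 33.7 CPM in KO and 4.52 to 27.1 CPM in WT tumors, with 1 of 4 passing (*Cd3d*, 1.46 ± 0.35, FDR 0.0391), all 4 at an unadjusted p under 0.05 and a median log2 fold change of 1.14. The overlap came from WT tumor 2, which also stood apart in B cell markers, while the other 5 WT tumors, at 4.52 to 14.4 CPM, lay below every KO tumor. Macrophage markers summed to 831 to 1180 CPM in KO and 590 to 1110 CPM in WT tumors, with 1 of 6 passing (*C1qb*, 0.73 ± 0.17, FDR 0.0371) and 3 at an unadjusted p under 0.05. Neutrophil markers summed to 31.0 to 93.1 and 33.6 to 54.2 CPM, with none of the 6 tested passing with edgeR (2 at an unadjusted p under 0.05, 0 with DESeq2) and *Ly6g* at 0 in every tumor. Adipocyte markers summed to 33.8 to 154 CPM in KO and 29.7 to 61.6 CPM in WT tumors, with none of 4 passing with edgeR (3 at an unadjusted p under 0.05, 2 with DESeq2). *Cd3d* missed the limit in 10 and *C1qb* in 9 of 12 fits without 1 tumor. Hepatocyte markers summed to at most 1.73 CPM in any tumor. The part of these cell types in the differences of *Saa3* and *Socs3* was not tested.

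**Figure D3:**
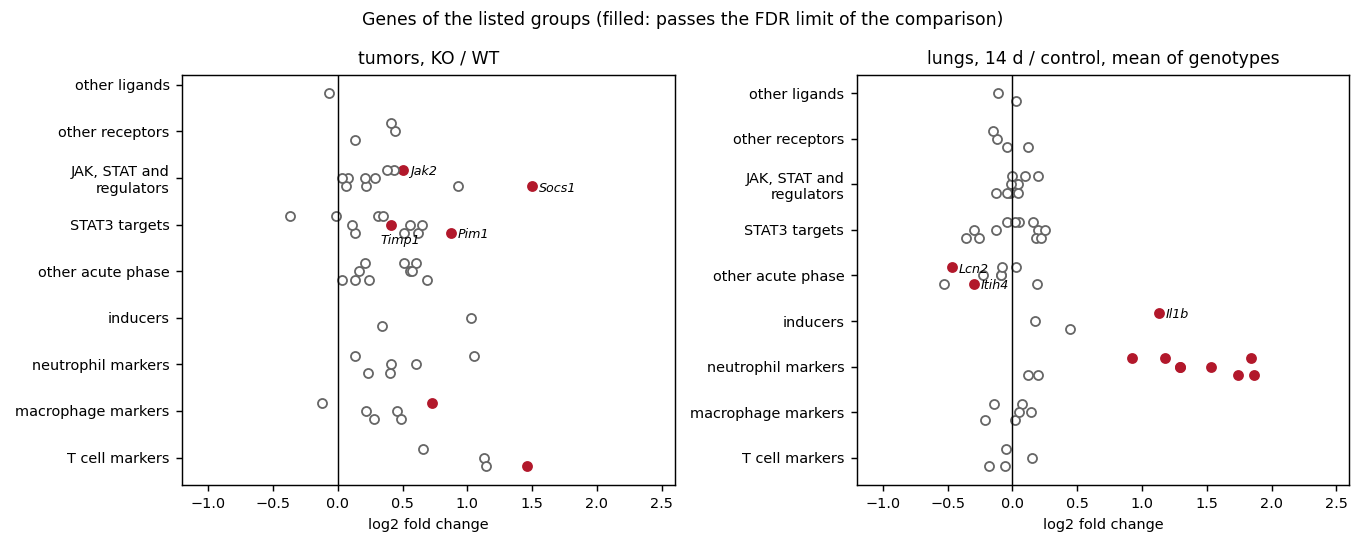
Log2 fold changes (points, one per tested gene) of the listed gene groups and of immune cell markers in tumors of KO over WT hosts (n = 6 each) and in lungs of tumor-bearing over control mice (n = 12 and 8); filled points pass an FDR of 0.05 in tumors or 0.25 in lungs. Filled points include *Socs1*, *Pim1*, *Jak2* and *Timp1* in tumors, and 8 neutrophil markers and *Il1b* in lungs.

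Genes were also ranked by how closely their deviations from the group means followed those of *Saa3* and *Socs3* from tumor to tumor. Over the 12 tumors, the log2(CPM + 1) deviations of *Saa3* were most like those of *Timp3* (Pearson r 0.90), *Cdcp1* (0.90), *Lrrc32* (0.89), *Gm12840* (0.89) and *Aldh1l2* (0.87). Those of *Socs3* were most like *Mxd1* (0.93), *Fosl2* (0.92), *Esyt3* (0.92), *Cltb* (0.91) and *Serpinb2* (0.90). These are the highest of 13829 genes compared and carry no test, since high values follow from choosing the highest, and tumors that differ in cell makeup or depth move many genes together. Of the 5 genes, 4 for *Saa3* and 5 for *Socs3* were also chosen on log2(CPM + 0.1). Among the members, *Saa3* deviated most like *Stat3* (r 0.83), then *Osmr* (0.69) and *Socs3* (0.68).

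In lungs, 1 member passed, in WT hosts. The question was how a distant tumor alters the lung before metastasis in each host. In WT lungs *Osmr* was higher in tumor-bearing than in control mice, as 1 of 9 members tested passed an FDR of 0.25 against 2.33% of the 16029 genes tested. *Osmr* was 77.7 to 92.1 CPM (median 89.8) in tumor-bearing WT mice, and 74.4, 75.1, 75.4 and 77.5 CPM in the 4 WT controls. All 6 tumor-bearing lungs were above all 4 controls, though the lowest, at 77.7 CPM, was next to the highest control. The log2 fold change was 0.24 ± 0.06 (edgeR, FDR 0.150), below the 1.5-fold limit used for lungs. It did not pass without WT control 1 (FDR 0.311), 2 (0.290) or 3 (0.296), nor on the FPKM scale with limma (FDR 0.591).

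*Il6ra* and *Il6st* lay on the same side in WT lungs without passing. *Il6ra* was 67.8 to 93.4 CPM (median 76.6) in tumor-bearing mice and 67.4, 67.2, 61.8 and 63.3 CPM in controls, a log2 fold change of 0.28 ± 0.10 (edgeR, FDR 0.273), and it passed with DESeq2 (FDR 0.215). *Il6st* had a log2 fold change of 0.14 ± 0.06 (FDR 0.355). In KO lungs 1385 of all 16029 genes had an unadjusted p under 0.05, and 311 passed with DESeq2. No member passed there with edgeR (1 at an unadjusted p under 0.05, 0 with DESeq2), against 1.05% of all genes. The exception at the unadjusted limit was *Lif*, at 0.780 to 3.51 CPM (median 2.83) in tumor-bearing KO mice and 1.3, 1.14, 0.796 and 2.27 CPM in controls (log2 fold change 0.94 ± 0.40, FDR 0.502). These are 4 to 20 counts a lung.

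The KO and WT responses of *Osmr* were -0.08 ± 0.06 and 0.24 ± 0.06. Their difference was -0.32 ± 0.09 and did not pass (edgeR interaction test, FDR 0.300), as no member did, against 0.0499% of all genes. *Osmr* was the 1 member at an unadjusted p under 0.05, a limit that 1367 of all 16029 genes met. Its difference passed with DESeq2 (FDR 0.116), as did those of 178 of all genes. It also passed without KO control 1 (FDR 0.167) and without WT lung 3 of the tumor-bearing mice (FDR 0.246).

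Averaged over both genotypes, no member passed with edgeR (1 at an unadjusted p under 0.05, 0 with DESeq2), against 4.80% of all genes. The unadjusted limit was met by 1920 of all 16029 genes, and 743 passed with DESeq2. *Saa3* was 1.56 to 2.59 CPM in KO and 0.733 to 3.08 CPM in WT tumor-bearing lungs, and 5.56, 2.48, 2.07 and 1.51 CPM in KO and 2.22, 3.24, 2.03 and 1.75 CPM in WT controls. The 4 groups overlapped, and KO control 1 was the highest of the 20 lungs for *Saa3* and, at 19.5 CPM, for *Lrg1*. The averaged log2 fold change was -0.25 ± 0.26 for *Saa3* (FDR 0.754), -0.09 ± 0.14 for *Lrg1* (FDR 0.859), 0.17 ± 0.10 for *Socs3* (FDR 0.534) and 0.01 ± 0.04 for *Stat3* (FDR 0.960). Without KO control 1 those of *Saa3* and *Lrg1* were 0.01 and 0.03.

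Neutrophil genes rose in the same lungs. Of 10 tested neutrophil markers 8 passed, among them *Cxcr2* by 1.18 ± 0.21 (FDR 0.0251), the calgranulin genes *S100a8* by 1.84 ± 0.38 and *S100a9* by 1.86 ± 0.39 (both FDR 0.0439), and the G-CSF receptor gene *Csf3r* by 1.29 ± 0.28 (FDR 0.0513). The marker sums were 102 to 435 CPM in tumor-bearing and 73.6 to 144 CPM in control lungs. Of the 40 tested genes of the pathway lists 1 rose and 2 fell, a count to be read against the 4.80% of all genes that passed. *Il1b*, an inducer of acute phase genes, rose from 8.84 ± 2.55 to 19.1 ± 8.01 CPM (log2 fold change 1.13 ± 0.27, FDR 0.0795). Of the acute phase genes, *Lcn2* fell by 0.47 (FDR 0.187) and *Itih4* by 0.30 (FDR 0.211) on the log2 scale, and both were unstable. Without 1 lung, *Lcn2* missed the limit in 6 of 20 fits (FDR up to 0.412, without KO control 1) and *Itih4* in 9 of 20 (up to 0.436, also without KO control 1), and both missed it with limma. *Itih4* also missed it with the replicate block (FDR 0.303) and with GC offsets and the block (FDR 0.331). The part of the neutrophil genes in the values of the members was not tested.

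Between KO and WT lungs no member passed, at 14 days (0.861% of all genes) or in controls (0.973%). At 14 days 4 of 9 members had an unadjusted p under 0.05, as did 1337 of all 16029 genes tested. With DESeq2 1 member passed, and 202 of all genes did. *Osmr* was 72.9 to 83.0 CPM in KO and 77.7 to 92.1 CPM in WT lungs (log2 fold change -0.18 ± 0.05; edgeR, FDR 0.290), and passed with DESeq2 (FDR 0.223) and without WT lung 4 (FDR 0.163). The others were *Il6ra* at -0.23 ± 0.09 (FDR 0.455), *Stat3* at -0.13 ± 0.06 (FDR 0.551) and *Lif* at 0.72 ± 0.35 (FDR 0.595). In controls *Osmr* was the 1 member of 9 at an unadjusted p under 0.05, at 0.14 ± 0.07 (FDR 0.423). That share is near the 1860 of all 16029 genes at this limit. With DESeq2 no member passed, and 451 of all genes did. In the 14-day lungs the heart muscle markers *Myh6*, by 0.66 (FDR 0.00310), and *Tnnt2*, by 0.57 (FDR 0.0711), were lower and *Col1a1* was higher by 0.65 (FDR 0.205) in KO hosts, though *Col1a1* missed the limit in 8 of 12 fits without 1 lung. Their part in the values of *Osmr* was not tested. Among the acute phase genes *Cp* was higher in KO controls, by 0.29 ± 0.08 (FDR 0.249), and missed the limit in 7 of 8 fits without 1 control. *Il6*, at 0 to 8 counts in each lung, gave two-sided exact permutation p-values of 0.248 to 0.952 in its 4 lung comparisons.

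Between tissues, 7 of 9 tested members differed at an FDR of 0.05, which 82.1% of the 16825 genes tested did too. In tumors 5 members were higher, against 40.9% of all genes, and 2 were lower. Whether a tumor and a lung come from the same mouse is not given in the labels, and the fit treated them as separate samples. *Lif* was 16.2 to 39.1 CPM in the 12 tumors and 0.683 to 3.51 CPM in the 20 lungs, a log2 fold change of 3.69 ± 0.18 over the 12 lungs of tumor-bearing mice (FDR 6.53e-19). *Saa3* was higher by 3.51 ± 0.28 (FDR 2.68e-13), though WT tumors 2 and 3, at 2.93 and 4.33 CPM, lay within the range of the 20 lungs.

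*Socs3* was 37.7 to 92.2 CPM in tumors and 19.0 to 36.7 CPM in lungs, without overlap (log2 fold change 1.02 ± 0.10, FDR 1.49e-11). *Osm* was higher in tumors by 1.32 ± 0.31 (FDR 0.000304). The receptor chains *Osmr*, by 0.74 (FDR 7.51e-11), and *Il6st*, by 0.52 (FDR 9.90e-12), were lower in tumors, and for both every tumor was below every lung. *Il6ra* did not pass (-0.03 ± 0.06, FDR 0.659), but its direction depended on the processing, as it passed as higher in tumors with GC offsets (0.22, FDR 0.00104) and as lower among genes with at least 10 counts in every sample (-0.13, FDR 0.0279). *Lrg1* did not pass either (0.28 ± 0.15, FDR 0.0845). *Stat3* passed at 0.12 ± 0.05 (FDR 0.0434), but its size depended on the processing, from -0.02 on the FPKM scale (FDR 0.868) to 0.35 with GC offsets and the replicate block (FDR 5.3e-08), and it missed the limit in 13 of 24 fits without 1 sample. *Il6* was 0.994 ± 1.02 CPM in tumors and 0.222 ± 0.278 CPM in lungs (n = 12 each; two-sided permutation test, p = 0.00746, adjusted p = 0.0448), and with scaling by total counts the adjusted p of the permutation test was 0.0534.

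**Figure D4:**
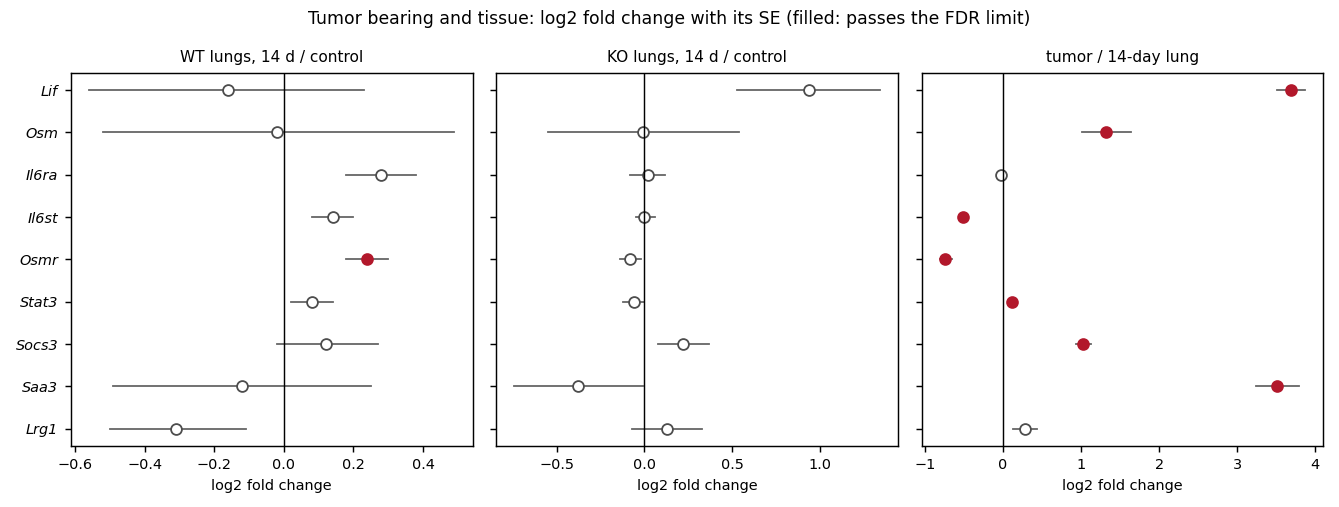
Log2 fold change (points) with its SE (lines) for the 9 members tested, in WT and in KO lungs of tumor-bearing over control mice (n = 6 and 4 each) and in tumors over 14-day lungs (n = 12 each); each panel has its own scale, and filled points pass an FDR of 0.25 in the lung panels or 0.05 in the tissue panel. *Osmr* at 0.24 is the only filled point of the lung panels, and *Lif* at 3.69 and *Saa3* at 3.51 lie highest between tissues.

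The difference between KO and WT hosts was itself compared between tumors and 14-day lungs, a test added after the data were seen. *Stat3*, by 0.44 ± 0.11 (FDR 0.0325), and *Socs3*, by 0.78 ± 0.19 (FDR 0.0334), passed an FDR of 0.05 as 2 of 9 members, against 1.06% of all genes. Fitted within each tissue, KO over WT hosts was 0.32 in tumors and -0.13 in lungs for *Stat3*, and 0.73 and -0.07 for *Socs3*. Between tissues, *Saa3* had the largest estimate, 2.16 ± 0.60, but missed the limit (FDR 0.0814), as did *Osmr* at 0.54 ± 0.15 (FDR 0.0685). The calls of *Stat3* and *Socs3* were near the limit, which *Stat3* missed in 10 and *Socs3* in 13 of 24 fits without 1 sample. *Saa3* passed with DESeq2 (FDR 0.0245), without KO tumor 4 (FDR 0.0443), without WT tumor 6 (FDR 0.00677), with the replicate block (FDR 0.0232), with the block and GC offsets (FDR 0.0222) and with limma on log2(FPKM + 1) (FDR 0.0294). *Osmr* passed in the first 3 of these settings, at FDR 0.0247, 0.0107 and 0.00416.

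The order of groups by mean level differed between members. For *Lif*, tumors of KO hosts were highest and tumors of WT hosts next, and the 4 lung groups followed, with overlapping ranges among the lungs. For *Socs3* the tumors of WT hosts also lay above all lungs, and for *Saa3* the tumors of KO hosts lay above all other groups. For *Osmr* and *Il6st* the tumors were the lowest groups, and the lung group nearest above them did not overlap with the tumors of KO hosts. For *Il6*, *Osm*, *Il6ra*, *Stat3* and *Lrg1*, each group overlapped with its neighbor in the order.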

How the data were processed

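RNA from 12 tumors and 20 lungs was sequenced as stranded, paired-end mRNA libraries. The authors deposited expected counts per gene (RSEM after STAR alignment to mm10, per the submitters' processing notes), which are whole numbers, and FPKM values per gene. The gene annotation release, and whether strand was used in counting, are not given in the sources used here. The study's methods name DESeq2; here edgeR 4.0.16 in R 4.3.3 was used (TMM scaling, filterByExpr, quasi-likelihood tests, Benjamini-Hochberg adjustment over all genes tested). Tumors were fitted by genotype, lungs by genotype and state in 1 model of 20 lungs, and tissues in 1 model of 32 samples. The FDR limit was 0.05 for tumors and tissues and 0.25 for lungs; SE is the log2 fold change divided by the square root of F. *Il6* failed the filter in each fit and was tested on CPM by two-sided exact permutation, or with 100000 resamples for 12 against 12. Totals of 4446323 to 8318711 counts per sample limit precision for the lowest genes, and no depth is given for FPKM.

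All 10 members were named in every comparison; of each list, the passing genes of smallest p, at most 4 per direction; and for up to 2 passing members per tissue, the 5 genes most alike. One gene of the planned lists is not reported here and was left out of their counts. The members and lists were chosen with earlier results of these data known. The comparison of the genotype difference between tissues was added after the data were seen. Alternatives were DESeq2 1.42.0, limma 3.58.1 on log2(FPKM + 1) and log2(FPKM + 0.1), other size factors, filters, GC offsets, limits, sample sets, a replicate block and leaving out each sample. The pipeline was tested on simulated data. Replicates of a group are separate animals, per the study's text. Replicate numbers were checked as pairs within each tissue. Deviations of samples with the same number correlated at -0.277 to 0.113 in tumors and -0.212 to 0.232 in lungs. Samples with unlike numbers gave -0.405 to 0.35 in tumors and -0.232 to 0.255 in lungs, so the numbers were not taken as pairs. A tumor was not compared with the lung of the same number, so this check does not cover pairs across tissues.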

Additional observations from a re-analysis of the deposited data

Results flagged for a closer look

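Among the 60 sets of values examined, each of 1 member in a group of 4 or 6 samples, 2 held a sample far from the rest. That share is no higher than the about 1 in 20 that chance gives. The *Il6* level of KO lung 3 of the tumor-bearing mice was 0.769 CPM, with the next sample at 0.219 CPM, and rests on 5 counts. The *Socs3* level of WT tumor 6 was 64.6 CPM, with the next WT tumor at 47.3 CPM.

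Fitted within each tissue, the log2 fold change of KO over WT hosts for *Stat3* was 0.32 in tumors and -0.13 in 14-day lungs. For *Socs3* the values were 0.73 and -0.07. The difference between tissues was 0.44 ± 0.11 for *Stat3* (edgeR, FDR 0.0325) and 0.78 ± 0.19 for *Socs3* (FDR 0.0334). The test of this difference was added after the data were seen. *Stat3* missed the limit in 10 and *Socs3* in 13 of 24 fits without 1 sample, and both missed it with limma and with only the groups compared.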

How the results depend on the processing

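The direction and call held in 1420 of 1613 alternative values of 66 values of single genes, while 137 lost and 35 gained a call and 21 reversed; no cause was tested. In tumors the 2 members passing became 4 at an FDR of 0.25, 1 with the 2-fold limit and 2 to 3 without 1 tumor. In WT lungs the 1 passing became 2 with DESeq2 or at least 10 counts in every sample, 0 with no filter, either limma fit, an FDR of 0.05 or the 1.5-fold limit, and 0 to 2 without 1 lung. Between 14-day lungs, 0 became 1 with DESeq2 or at least 10 counts, and 0 to 1 without 1 lung; the interaction 0 became 1 with DESeq2, and 0 to 1; the average gave 0 to 1, and KO response and controls 0 to 0. Between tissues 7 became 4 with at least 10 counts or the 2-fold limit, and 6 to 8. For the genotype difference between tissues, 2 became 4 with DESeq2 or an FDR of 0.25, 1 and 0 with limma, 0 with only the groups compared or the 2-fold limit, and 0 to 4. *Il6ra* between tissues turned to 0.22 with GC offsets, alone (FDR 0.00104) or with the block (FDR 0.00117), to 0.01 with limma, and ranged from -0.06 to 0.00 without 1 sample; *Stat3* turned to -0.02 with limma and rose to 0.35 with GC offsets and the block. In the lung average, *Stat3* turned to -0.02 with the block, 0.00 with GC offsets and the block and -0.03 with limma, and without 1 lung the values ranged from -0.01 to 0.03 for *Stat3*, -0.35 to 0.01 for *Saa3* and -0.18 to 0.03 for *Lrg1*.

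Without 1 sample, *Il6* differences in CPM ranged from 0.863 to 1.41 in tumors, -0.137 to 0.0663 for the KO response, -0.498 to -0.138 for the WT response, -0.176 to 0.00414 between 14-day lungs, -0.537 to -0.177 between controls and 0.560 to 0.862 between tissues, where scaling by total counts gave 0.733 (permutation, adjusted p = 0.0534). With the replicate block, 1 member passed in KO lungs (*Lif*, 1.1, FDR 0.179), also with GC offsets, against 0 without it, and 3 for the genotype difference between tissues against 2, as *Saa3* gained the call; the numbers were not taken as pairs.

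Over all genes, calls without 1 sample ranged from 203 to 488 in tumors (347; DESeq2 549), 9 to 215 in KO lungs (169; block 513), 43 to 753 in WT lungs (373; block 582), 383 to 1075 for the average (769; block 1191), 69 to 218 between 14-day lungs (138), 5 to 281 between controls (156; 1189 with only these groups), 1 to 127 for the interaction (8; DESeq2 178) and 114 to 323 for the genotype difference between tissues (179).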
